A study of Homo sapiens with 4 samples.

Results

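PPP2R2C encodes a B55-type regulatory subunit of protein phosphatase 2A (PP2A), and it was examined in Daoy cells together with the 7 other genes of its group: the B55 subunit genes PPP2R2A, PPP2R2B and PPP2R2D, the scaffold genes PPP2R1A and PPP2R1B, and the catalytic subunit genes PPP2CA and PPP2CB. These 8 genes, found by symbol among 58174 genes, form a list that was drawn up around PPP2R2C with its difference between the genotypes known, while the other 7 were taken as its relatives. Differences between genotypes for the 8 are therefore given as descriptions with no p-value of their own, and the number called in the tests over all genes is printed only beside the share of all genes called. The libraries were RNA-seq profiles of Daoy, an established cell line from a human medulloblastoma: 2 from EED-knockout cells and 2 from wild type cells, with no treatment or other allele named in the labels. The labels give neither the position of the EED lesion, nor whether the knockout is 1 clone or several, nor whether replicates are separate cultures, so errors and p-values measure the spread between libraries, which may be technical. EED belongs to the Polycomb complex PRC2, which deposits the silencing mark H3K27me3.

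PP2A is an abundant serine/threonine phosphatase that works mostly as a trimer. A scaffold subunit holds a catalytic subunit and one regulatory subunit, and the regulatory subunit decides where the enzyme goes and which proteins it dephosphorylates. The B55 family is best known for dephosphorylating substrates of the mitotic cyclin-dependent kinase at mitotic exit. PPP2R2A is the widely expressed member of that family, whereas PPP2R2B and PPP2R2C are best known from brain.

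The libraries held 17836112 to 19106382 estimated counts. EED itself had 340 and 490 counts in the knockout libraries, against 626 and 500 counts in the wild type libraries, so its messenger was still present, and knockout 2 lay close to wild type 2. The 9 markers of the granule neuron and medulloblastoma lineage, 6 of them tested, summed to 131.9 and 90.1 TPM (an abundance per transcript length, scaled to each library) in knockout and 80.0 and 93.1 TPM in wild type libraries. Among them GLI1 and GLI2, transcription factors of Hedgehog signalling, were apart in the same direction as PPP2R2C. GLI1 had 5.45 and 4.27 TPM in knockout and 1.75 and 1.29 TPM in wild type libraries, and GLI2 had 43.8 and 25.5 TPM in knockout and 19.6 and 18.3 TPM in wild type libraries. ZIC2 went the other way in TPM, with both knockout libraries below both wild type libraries. Its counts overlapped, at 330 and 524 in knockout and 550 and 435 in wild type libraries. ZIC1 overlapped, at 50.3 and 25.3 TPM in knockout and 22.2 and 31.3 TPM in wild type libraries. PAX6 and NES also overlapped in TPM. In counts PAX6 did not overlap, at 373 and 383 in knockout and 311 and 345 in wild type libraries. ATOH1, which defines granule neuron progenitors, had 0 counts in all 4 libraries. Of the 6 tested lineage markers, 3 had both knockout libraries as the higher pair in CPM (17.8% over all genes), namely GLI1, GLI2 and PAX6. For 0 of the 6 were the knockout libraries the lower pair (18.0% over all genes). The edgeR test called 0 of the 6 and had 1 at an unadjusted p under 0.05, and DESeq2 called 0. The part of these markers in the PPP2R2C difference was not tested. The 9 markers of other cell types, 4 of them tested, summed to 58.3 and 135.7 TPM in knockout and 62.2 and 142.3 TPM in wild type libraries, most of it the keratin KRT8, and CD3E was at 0. Of the 4 tested markers of other cell types, 2 had both knockout libraries as the higher pair in CPM (17.8% over all genes). The knockout libraries were the lower pair for 0 of them (18.0% over all genes), and edgeR and DESeq2 each called 0.

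The PPP2R2C gene (ENSG00000074211) lies on the minus strand of chromosome 4, from 6320578 to 6563600 (GRCh38), and its transcripts start at widely separated first exons. Of 9 listed transcripts 7 had at least 1 estimated count in some library, and 3 protein-coding transcripts carried nearly all counts. These 3 differ in where they start and in the coding bases of their first coding exon, after which they share the same coding exons, so those short stretches are what tells the encoded proteins apart. They are shown in gene orientation with the start codon in capitals, from the GENCODE 29 transcripts; on chromosome 4 they occupy 6472160 to 6472229 (PPP2R2C-001), 6381777 to 6381846 (PPP2R2C-002) and 6535271 to 6535319 (PPP2R2C-003).
PPP2R2C-001: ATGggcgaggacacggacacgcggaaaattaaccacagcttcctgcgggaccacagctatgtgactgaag
PPP2R2C-002: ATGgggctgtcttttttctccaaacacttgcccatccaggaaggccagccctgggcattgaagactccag
PPP2R2C-003: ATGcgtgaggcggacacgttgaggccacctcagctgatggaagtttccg

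The DNA before these starts also differs, above all in CpG dinucleotides, the sites of DNA methylation, whose dense clusters at promoters are where Polycomb is known to act. Below are the 250 bases before the RefSeq start site nearest to each transcript (RefSeq, GRCh38.p14, minus strand, 5′ to 3′), with every CG in capitals; CG reads the same on both strands. The windows are chr4:6472615-6472864 for PPP2R2C-001, chr4:6381869-6382118 for PPP2R2C-002 and chr4:6563800-6564049 for PPP2R2C-003. For PPP2R2C-001 and PPP2R2C-003 the GENCODE starts, at 6472446 and 6563600, lie downstream of the RefSeq starts, at 6472614 and 6563799, so these windows do not directly adjoin the transcripts as GENCODE has them.
Upstream of PPP2R2C-001: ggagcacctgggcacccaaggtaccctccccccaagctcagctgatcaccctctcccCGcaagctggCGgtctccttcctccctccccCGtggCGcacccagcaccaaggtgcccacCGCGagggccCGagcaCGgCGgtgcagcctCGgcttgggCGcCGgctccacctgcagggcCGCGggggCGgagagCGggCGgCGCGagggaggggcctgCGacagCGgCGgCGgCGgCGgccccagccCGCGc
Upstream of PPP2R2C-002: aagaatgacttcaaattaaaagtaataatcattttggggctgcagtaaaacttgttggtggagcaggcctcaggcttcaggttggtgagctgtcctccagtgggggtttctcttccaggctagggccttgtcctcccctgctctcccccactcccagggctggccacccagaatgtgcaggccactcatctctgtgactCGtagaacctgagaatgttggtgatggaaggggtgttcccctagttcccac
Upstream of PPP2R2C-003: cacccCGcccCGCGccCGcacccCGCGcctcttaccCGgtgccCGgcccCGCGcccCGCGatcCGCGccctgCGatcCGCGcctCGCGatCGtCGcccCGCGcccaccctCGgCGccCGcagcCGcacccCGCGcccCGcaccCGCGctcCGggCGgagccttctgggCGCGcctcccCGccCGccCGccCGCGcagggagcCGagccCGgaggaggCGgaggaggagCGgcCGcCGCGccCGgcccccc

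The window of PPP2R2C-003 held 49 CG, a number reached by 0.205% of the 35116 RefSeq windows of this length, and 86.0% of its bases were G or C. PPP2R2C-001 had 27 CG, reached by 17.7% of windows, and PPP2R2C-002 had 1 CG, reached by 93.9% of windows, against a median of 11 over all windows. The PPP2R2C starts thus span nearly the whole range found at human promoters. Both windows of its relative PPP2R2B were in between, with 18 and 4 CG, and PPP2R2D had 34. These are counts of letters and carry no measurement of methylation or binding in Daoy cells.

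PPP2R2C was measured at 382 and 327 counts in the EED-knockout libraries, against 31 and 57 counts in the wild type libraries. Per length, that was 10.6 and 9.77 TPM in knockout and 0.960 and 1.77 TPM in wild type cells. Both knockout libraries were high and close to each other, both wild type libraries were low, and the groups did not overlap in counts or TPM. In CPM (counts scaled to library size) the means were 18.8 ± 1.87 in knockout and 2.43 ± 1.02 in wild type cells (SD, n = 2 each). The log2 fold change from edgeR was 2.95 ± 0.37 (SE), a 7.72-fold higher level in knockout cells with a 95% interval of 4.18 to 14.3. Over all genes, 49 of 18349 tested (0.267%) had a log2 fold change as large or larger. That rank is a description only, since PPP2R2C was chosen with this difference known. In GENCODE 29 the 14 tested genes within 500 kb of PPP2R2C, on either strand, all lie outside its body. In bulk RNA, fewer cells that express a gene and less RNA per cell cannot be told apart.

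**Figure D1:**
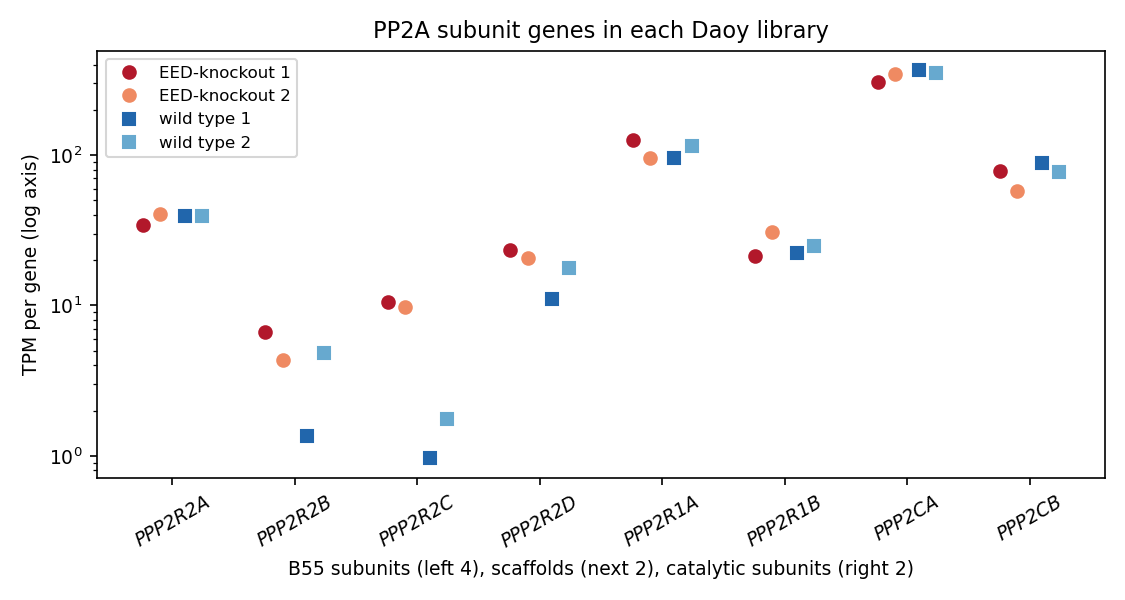
Level of each PP2A subunit gene (TPM, log axis) in the 2 EED-knockout libraries (circles) and the 2 wild type libraries (squares). PPP2R2C, chosen with its difference known, stood at 10.6 and 9.77 TPM in knockout and 0.960 and 1.77 TPM in wild type libraries. In ratio, no other gene of the 8 showed so wide a gap.

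The difference sat in PPP2R2C-001 and PPP2R2C-002. PPP2R2C-002, the longest of the 3 because of a last exon that runs further, had 260 and 225 estimated counts in knockout and 15.2 and 31.6 in wild type libraries. PPP2R2C-001 had 105 and 97.6 estimated counts in knockout and 4.14 and 18.8 in wild type libraries. Their log2 fold changes were 3.30 ± 0.51 (SE) and 3.07 ± 0.85 in an edgeR fit of all transcripts. The SEs of transcripts treat estimated counts as observed, and leave out the error of dividing shared fragments between transcripts. Per length their levels in knockout cells were close, PPP2R2C-002 at 4.91 and 4.31 TPM in knockout and 0.270 and 0.623 TPM in wild type libraries, and PPP2R2C-001 at 4.69 and 4.38 TPM in knockout and 0.177 and 0.866 TPM in wild type libraries. Both transcripts had more messenger in each knockout library than in either wild type library.

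PPP2R2C-003, whose upstream window is the CG-richest, had 12.4 and 0 estimated counts in knockout and 11.7 and 5.38 in wild type libraries, and the groups overlapped. Its log2 fold change was -0.56 with an SE of 1.79, so at this depth its behaviour was not determined. In wild type 1, where the gene was lowest, this transcript held 53.4% of the gene's TPM, whereas it held 14.5% in wild type 2. Its share was 5.44% in knockout 1 and 0% in knockout 2. The remaining transcripts with counts had at most 4.23 estimated counts in any library. The 3 transcripts share most of their coding exons, so kallisto divides shared fragments between them by a model that uses the parts they do not share, which are their first exons and, for PPP2R2C-002, a long extension of the last exon. PPP2R2C-002 is 4092 bases long and ends at 6320578, against 1807 bases and an end at 6323056 for PPP2R2C-001.

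**Figure D2:**
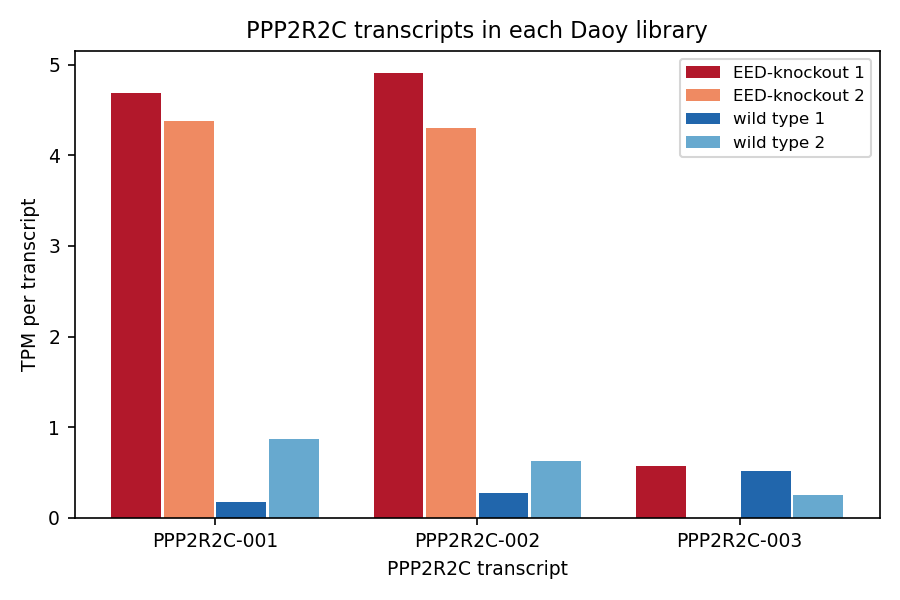
TPM of the 3 main PPP2R2C transcripts, 1 bar per library, EED-knockout in reds and wild type in blues. PPP2R2C-001 and PPP2R2C-002 reached 4.31 to 4.91 TPM in knockout libraries and at most 0.866 TPM in wild type libraries, while PPP2R2C-003 had at most 0.576 TPM in any library.

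The other B55 genes differed less. PPP2R2A (chromosome 8, 26291491 to 26372680) had 700 and 758 counts in knockout and 985 and 878 in wild type libraries, 36.9 and 40.5 CPM against 54.2 and 48.6 CPM. Its log2 fold change was -0.41 (95% interval -0.87 to 0.05). In TPM the genotypes overlapped, at 34.2 and 40.9 in knockout and 39.4 and 39.2 in wild type libraries, and the log2 difference was -0.07 by limma-trend on log2(TPM + 1). Its long transcript PPP2R2A-001 had 154 and 205 estimated counts in knockout and 340 and 331 in wild type libraries, while the leading transcript PPP2R2A-002 had 465 and 469 in knockout and 563 and 468 in wild type libraries.

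PPP2R2B (chromosome 5, 146581146 to 147084784) was the least even member. It had 177 and 66 counts in knockout and 27 and 85 in wild type libraries, so the genotypes overlapped. Its log2 fold change of 1.05 had a 95% interval of -0.52 to 2.62, and was 0.19 without knockout 1 and 2.10 without wild type 2. Its leading transcript by TPM, PPP2R2B-017, had 46.7 and 20.3 estimated counts in knockout and 22.6 and 31.9 in wild type libraries. An antisense gene overlaps PPP2R2B, and whether the libraries mark strand is not stated. PPP2R2B-016, singled out after its values were seen, had 38.9 and 17.5 in knockout libraries and 0 in both wild type libraries, where 0 allows up to 3 counts.

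PPP2R2D (chromosome 10, 131900644 to 131959834) had 656 and 624 counts in knockout and 387 and 549 in wild type libraries. The genotypes did not overlap, but the distance between them was smaller than that between the wild type libraries, and the log2 fold change was 0.39 (95% interval -0.18 to 0.97). Most of its TPM came from transcripts that are not annotated as coding. The leading one by mean TPM, PPP2R2D-003, is a retained intron form. It had 10.4 and 6.57 TPM in knockout and 2.32 and 6.63 TPM in wild type libraries. PPP2R2D-005, also not annotated as coding, was above it in knockout 2 and wild type 1. The coding transcript PPP2R2D-001 had 3.80 and 3.54 TPM in knockout and 1.91 and 3.60 TPM in wild type libraries. Of the gene's estimated counts, not scaled to length, PPP2R2D-001 held 40.8% to 49.5% and PPP2R2D-003 held 10.4% to 25.6%.

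The make-up of B55 messenger was compared by each gene's share of the summed level. The 4 B55 genes summed to 74.9 and 75.7 TPM in knockout and 52.7 and 63.5 TPM in wild type libraries. PPP2R2C made up 14.1% and 12.9% of that sum in knockout libraries, against 1.82% and 2.78% in wild type libraries. PPP2R2A was the leading B55 gene throughout, with 45.7% and 54.0% in knockout and 74.8% and 61.7% in wild type libraries. Over protein-coding transcripts alone, a sum chosen after seeing the data, PPP2R2C held 22.7% and 17.4% in knockout and 2.59% and 4.43% in wild type libraries. On that scale PPP2R2C was the second B55 gene in both knockout libraries, at 10.4 and 8.69 TPM, above PPP2R2B at 5.0 and 3.19 TPM and PPP2R2D at 3.80 and 3.54 TPM. In both wild type libraries it was the lowest, at 0.960 and 1.75 TPM. Messenger shares say nothing of how much of each protein joins the enzyme.

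**Figure D3:**
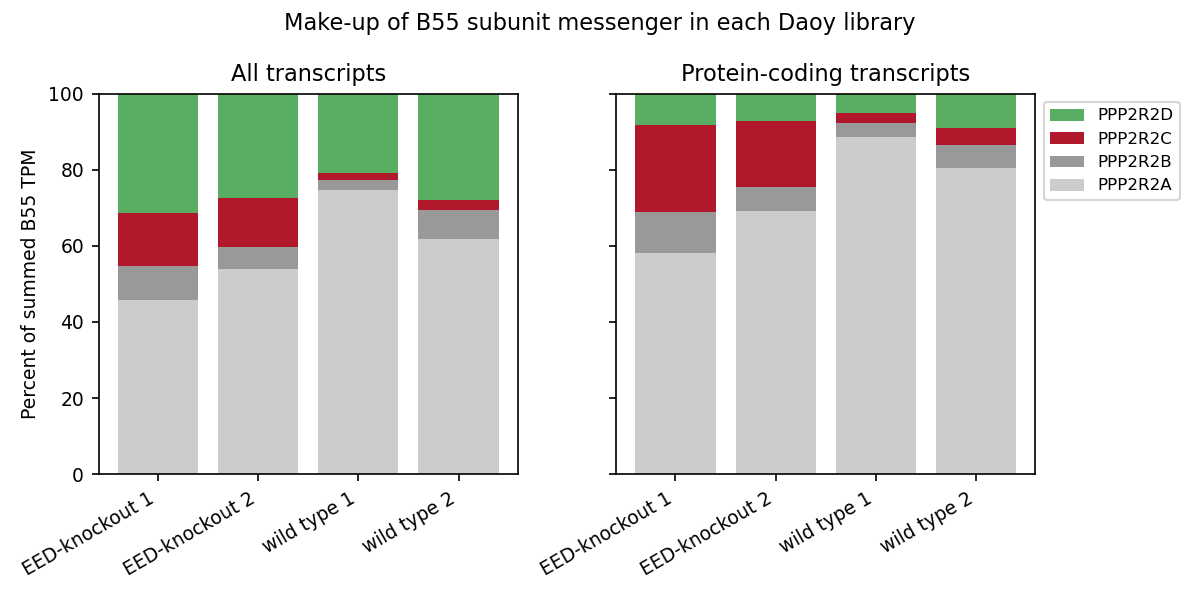
Share of each B55 gene in the summed B55 TPM of every library, for all transcripts (left) and for protein-coding transcripts (right). The PPP2R2C segment was 14.1% and 12.9% in EED-knockout libraries and 1.82% and 2.78% in wild type libraries over all transcripts.

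The scaffold and catalytic genes serve every PP2A trimer. PPP2R1A (chromosome 19, 52190039 to 52229533), the main scaffold, had 125 and 95.3 TPM in knockout and 96.2 and 115.9 TPM in wild type libraries. PPP2R1B (chromosome 11, 111726908 to 111766427), its less abundant paralog, had 21.3 and 31.0 TPM in knockout and 22.5 and 24.9 TPM in wild type libraries. Genotypes overlapped for both, with log2 fold changes of 0.03 (95% interval -0.47 to 0.53) and 0.09 (-0.41 to 0.59). The sign for PPP2R1A changed with which knockout library was left out, -0.19 without knockout 1 and 0.22 without knockout 2, and it was -0.04 with length-scaled counts. That for PPP2R1B was 0.27 without knockout 1 and -0.13 without knockout 2. PPP2R1A-003 led the scaffold messengers, with 96.6 and 71.6 TPM in knockout and 77.0 and 83.6 TPM in wild type libraries. PPP2R1B overlaps SIK2 on the opposite strand, so reads of the 2 genes may not be separable.

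PPP2CA (chromosome 5, 134194334 to 134226142) was the most abundant of the 8 genes, with 305.7 and 345 TPM in knockout and 368 and 355 TPM in wild type libraries. PPP2CB (chromosome 8, 30774457 to 30814314), the second catalytic subunit gene, had 77.9 and 57.8 TPM in knockout and 88.3 and 77.3 TPM in wild type libraries. Log2 fold changes were -0.24 (95% interval -0.72 to 0.24) and -0.39 (-0.88 to 0.10), with both knockout libraries below both wild type libraries in CPM for each gene. In TPM that held for PPP2CA, while the genotypes overlapped for PPP2CB. PPP2CA made up 79.7% and 85.7% of catalytic TPM in knockout and 80.7% and 82.1% in wild type libraries. The short noncoding transcript PPP2CA-007 held 50.7% to 57.9% of the PPP2CA TPM (162 and 200 TPM in knockout, 186 and 195 TPM in wild type libraries). Of the gene's estimated counts, which are not scaled to length, it held 12.0% to 15.3%. The coding transcript PPP2CA-001, 4649 bases long against 564, held 78.8% to 83.2% of those counts. The coding transcripts of PPP2CA summed to 140 and 142 TPM in knockout and 179 and 148 TPM in wild type libraries.

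Ordered by mean TPM, the 8 genes ran in knockout cells PPP2CA, PPP2R1A, PPP2CB, PPP2R2A, PPP2R1B, PPP2R2D, PPP2R2C and PPP2R2B, and in wild type cells the same except that PPP2R2B stood above PPP2R2C. Neighbours in this order overlapped for PPP2R1B and PPP2R2D in knockout cells and for PPP2R2B and PPP2R2C in wild type cells, and for no other pair. In knockout cells PPP2R2C lay above PPP2R2B in both libraries. In ratio, the libraries of a genotype differed most for PPP2R2B, at 1.36 and 4.84 TPM in wild type cells, and least for PPP2R2A in wild type cells.

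**Figure D4:**
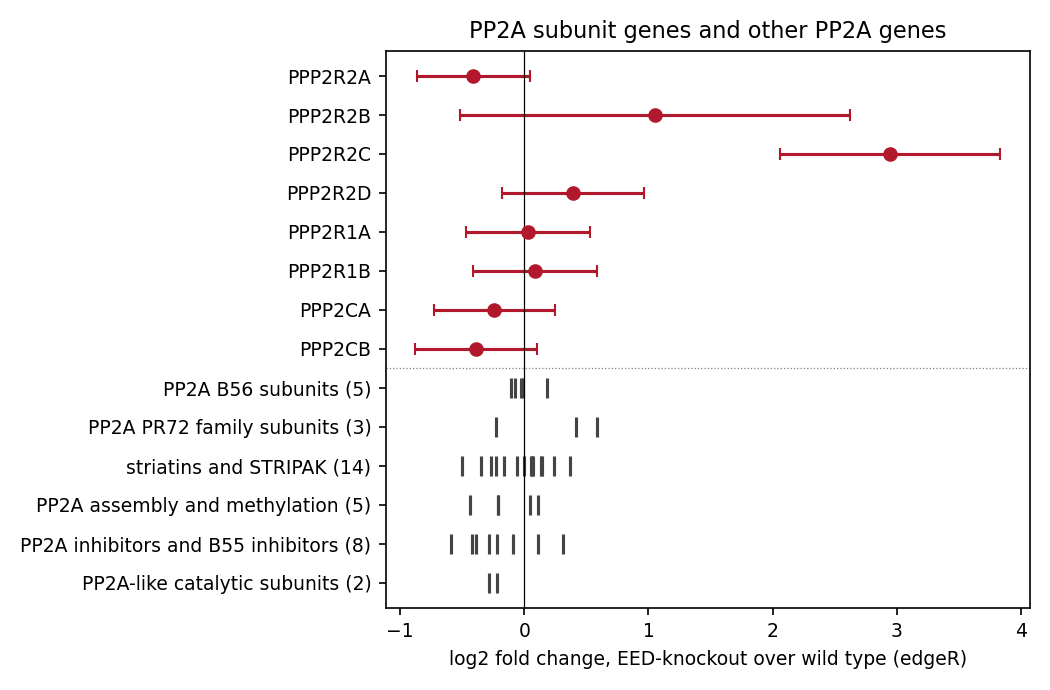
Log2 fold change of EED-knockout over wild type for the 8 PP2A subunit genes (points with 95% intervals from edgeR) and for 37 other PP2A genes (ticks, number per group in brackets). PPP2R2C stood at 2.95, while the other PP2A genes ranged from -0.59 to 0.59.

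In the edgeR quasi-likelihood test over 18349 genes, 0 of the 8 genes were called at an adjusted p of 0.05, where the background was 0% of all genes in either direction, with 523 genes higher (2.85%) and 559 lower (3.05%) at an unadjusted p under 0.05. DESeq2 called 35 genes higher and 44 lower, 0.177% and 0.223% of those it tested, and 1 of the 8, PPP2R2C, which was chosen on this contrast. In CPM the knockout libraries were both the higher pair for 2 of the 8 genes (background 17.8%) and both the lower pair for 3 (background 18.0%). Nothing is read from these counts, since the list was made with the contrast known. The median log2 fold change of the 8 was 0.06, against 0.01 for all tested genes.

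The other genes of the PP2A system, listed by function, had smaller fold changes than PPP2R2C, which was chosen with its difference known. Of 37 genes, all tested, edgeR and DESeq2 each called 0, and edgeR had 0 at an unadjusted p under 0.05. The smallest edgeR adjusted p was 0.847. Their median log2 fold change was -0.08, with 14 positive and 23 negative. The knockout libraries were both the higher pair in CPM for 4 of the 37, where the share over all genes was 17.8%, and both the lower pair for 9, where it was 18.0%.

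The B56 family, the other large family of regulatory subunits, had log2 fold changes from -0.11 to 0.18 over 5 genes. Its leading member PPP2R5C stood at 124 and 123 TPM in knockout and 116 and 114 TPM in wild type libraries, above PPP2R5E and PPP2R5D in each. In the PR72 family PPP2R3A, encoding a calcium-binding subunit, had a log2 fold change of 0.59 ± 0.41 (SE), with 8.75 TPM in knockout 1 and 4.14 TPM in knockout 2, against 4.18 and 5.0 TPM in wild type libraries. Striatins and their partners, which tether PP2A to kinases of the STE20 group, had a median of 0.02 over 14 genes, and ranged from -0.51 to 0.37. STK25, one of those kinases, had 116 and 115 TPM in knockout and 88.5 and 86.4 TPM in wild type libraries, apart in TPM but overlapping in CPM. PDCD10, a partner of these kinases, had 107 and 99.3 TPM in knockout and 130 and 117 TPM in wild type libraries (log2 fold change -0.35 ± 0.20, SE; edgeR adjusted p = 0.881).

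B55 has its own mitotic inhibitors: the kinase MASTL (Greatwall) phosphorylates ENSA and ARPP19, which then block PP2A-B55. MASTL stood at 14.9 and 16.6 TPM in knockout and 13.6 and 13.6 TPM in wild type libraries. ARPP19 had 189 and 199.6 TPM in knockout and 254 and 205 TPM in wild type libraries, with a log2 fold change of -0.59 ± 0.25 (SE; edgeR adjusted p = 0.847). ENSA had 130.2 and 156.2 TPM in knockout and 179 and 156.4 TPM in wild type libraries (-0.42 ± 0.19, edgeR adjusted p = 0.855). For both genes, each knockout library lay below each wild type library, and wild type 1 was the highest of the 4. KIAA1524, which encodes the PP2A inhibitor CIP2A, had 71.6 and 59.1 TPM in knockout and 46.9 and 52.2 TPM in wild type libraries (0.31 ± 0.19, adjusted p = 0.881 by edgeR). SET, the most abundant inhibitor gene, had 626 and 799.7 TPM in knockout and 881 and 692 TPM in wild type libraries, which overlap. The assembly and methylation genes, among them LCMT1, the methyltransferase of the catalytic subunit, and PPME1, its methylesterase, ranged from -0.44 (TIPRL, a regulator of the catalytic subunit) to 0.11.

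The genes around PPP2R2C were examined to see whether the difference extended along chromosome 4. Within 500 kb of its body lay 25 other genes, of which 14 were tested. Their median log2 fold change was 0.29, with 13 positive and 1 negative, against 2.95 for PPP2R2C and 0.01 for all genes. WFS1, an endoplasmic reticulum membrane protein gene 17.3 kb away, had 50.6 and 21.7 TPM in knockout and 11.4 and 22.5 TPM in wild type libraries, so that the genotypes overlapped. MAN2B2, a lysosomal mannosidase gene 11.6 kb away on the side of the PPP2R2C starts, had 7.82 and 6.10 TPM in knockout and 3.75 and 7.92 TPM in wild type libraries. JAKMIP1 had 46 and 19 counts in knockout and 6 and 24 in wild type libraries.

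Of the 4 neighbours whose genotypes did not overlap in CPM, CRMP1 had the highest log2 fold change, 0.92. It is a gene of neuronal growth cone signalling and had 62.4 and 29.03 TPM in knockout and 22.4 and 23.5 TPM in wild type libraries. Of the 14 neighbours edgeR called 0 (smallest adjusted p 0.808, with 1 at an unadjusted p under 0.05) and DESeq2 called 0. The knockout libraries were both the higher pair in CPM for 4 of the 14 (17.8% over all genes) and both the lower pair for 0 (18.0% over all genes). The neighbours' median moved with the knockout libraries: it was 0.10 without knockout 1, 0.62 without knockout 2, 0.43 without wild type 2 and 0.30 without wild type 1, settings chosen after seeing the data. PPP2R2C without knockout 1 was still at 2.85. Whether the regional values bear on PPP2R2C was not tested.

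**Figure D5:**
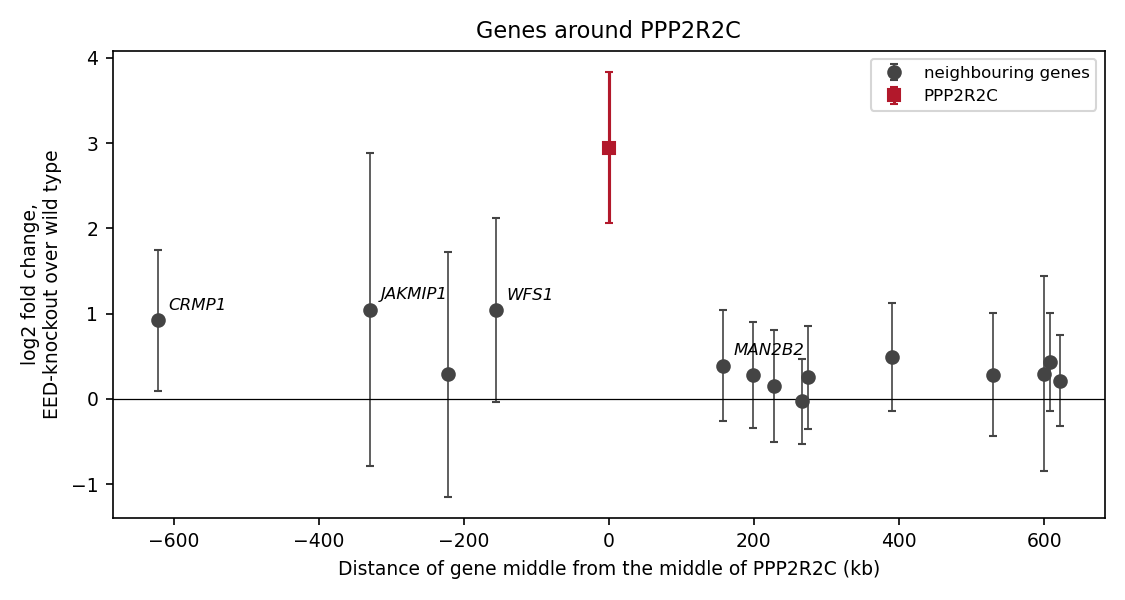
Log2 fold change of EED-knockout over wild type, with 95% intervals from edgeR, for PPP2R2C (square) and the 14 tested genes within 500 kb (circles), by distance between gene middles. PPP2R2C at 2.95 lay above all neighbours, of which the highest was JAKMIP1 at 1.05.

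Across the 4 libraries, the patterns most like that of PPP2R2C were those of B4GALNT3, SLC47A1 and CRABP1, by Euclidean distance between centred log2 CPM values among 14549 other protein-coding genes (distances 0.43, 0.44 and 0.46). B4GALNT3, a glycosyltransferase gene on chromosome 12, had 106 and 77 counts in knockout and 10 and 15 in wild type libraries. SLC47A1, a cation exporter gene on chromosome 17, had 100 and 63 counts in knockout and 4 and 9 in wild type libraries. CRABP1, a retinoic acid binding protein gene on chromosome 15, had 63 and 83 counts in knockout and 6 and 11 in wild type libraries. Each was low in both wild type libraries and high in both knockout libraries, with fewer counts than PPP2R2C, and likeness over 4 libraries is a description only.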

How the data were processed

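Total RNA of 4 Daoy libraries was sequenced. The values are estimated counts and TPM that the authors deposited, one pair per transcript. Per the submitters' processing notes they came from kallisto 0.43.1 on hg38, whose TPM corrects for effective transcript length. Neither annotation release nor kallisto options were found, being not given in the sources used here. Each file listed 199324 transcripts, and coordinates came from GENCODE 29 on GRCh38, the same build.

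Estimated counts and TPM were summed per gene, and counts were rounded. The contrast was fitted in edgeR 4.0.16 (R 4.3.3) by quasi-likelihood F test, with TMM factors, filterByExpr (minimum count 10, minimum total 15), no covariate, and Benjamini-Hochberg adjustment over 18349 genes at 0.05, two-sided. Intervals are 95% intervals of that fit. Transcripts were fitted likewise. All 8 subunit genes passed the filter, and 3 of 9 PPP2R2C transcripts did. Library totals of 17836112 to 19106382 put 3 counts at 0.157 to 0.168 CPM, and the limit of 3 counts covers counting error only.

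The genes and lists were chosen with earlier results of these data known. Named were the 8 genes, PPP2R2C transcripts with at least 1 count, the leading transcript of each other gene, up to 3 listed PP2A genes per group by TPM and any called in that group, tested genes within 500 kb of PPP2R2C, the 3 protein-coding genes most like it, and EED. Some listed PP2A genes and transcripts outside that rule were named after their values were seen, for their known role or their values. Alternatives were DESeq2 1.42.0, its size factors, no filter, a replicate block, length-scaled counts, limma-trend 3.58.1 on log2(TPM + 1) and log2(TPM + 0.1), and leaving out each library.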

Additional observations from a re-analysis of the deposited data

How the results depend on the processing

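The log2 fold change of PPP2R2C was positive in all 11 alternatives, from 2.26 by limma-trend on log2(TPM + 1) to 3.45 without wild type 2, and from 2.57 to 3.45 over the fits that left out 1 library. It was 3.0 with the replicate block. Calls over all genes were 79 with DESeq2 and 0 to 23 with 1 library left out (19 without wild type 2, 23 without knockout 1), and 0 in the other fits, the replicate block among them. Of the 8 subunit genes DESeq2 called 1, and the fits without 1 library called 0 to 1 (PPP2R2C, without wild type 2). Of the 37 other PP2A genes 0 were called in every fit. Fits without 1 library take the spread from the genotype that still has 2, and assume that the remaining library of the other varies as much. The labels give both genotypes replicate numbers 1 and 2 but nothing says that they pair libraries, and the differences between libraries of the 2 genotypes correlated at -0.14 over genes. Pairing the numbers crosswise, a fit added after seeing the data, gave 0 calls. Over coding transcripts the mean share of PPP2R2C in B55 TPM was 20.1% in knockout and 3.51% in wild type cells, against 13.5% and 2.30% over all transcripts. Depth limits PPP2R2C in wild type cells, at 31 and 57 counts, and its transcripts most.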
